A study of Mus musculus with 36 samples.

Results

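The proteasome is the protease complex that degrades ubiquitin-tagged proteins, and its subunits are encoded by the gene families Psma, Psmb, Psmc, Psmd, Psme, Psmf and Psmg. All genes whose single annotated symbol starts with one of these stems were taken, which gave 48 of the 12393 genes measured. They were grouped by textbook role into 8 alpha ring genes, 7 constitutive beta ring genes, 6 regulatory ATPases, 11 regulatory non-ATPases, 4 immune subunits, 7 assembly chaperones, 3 other regulators and 2 genes that are only named after a subunit (Psmc3ip and Psme3ip1). The alpha ring, the beta ring, the ATPases and the non-ATPases, without the testis form Psma8, are called core subunits here and number 31. Psmb11 had no probe set of its own on the array, and the probe set for Psme2 also matched a second symbol, so neither gene was a member. The study profiled the left ventricle of 36 mice on Affymetrix arrays, 1 array per mouse. Each mouse had been through either transverse aortic constriction (TAC), which narrows the aorta and loads the ventricle with pressure, or the corresponding operation without a constriction (SHAM), and were killed 8 weeks later. Each surgery had 3 mice at each of 6 times of day, ZT03, ZT07, ZT11, ZT15, ZT19 and ZT23, where ZT is zeitgeber time, counted in hours from the daily lighting signal. No gene was manipulated in any group, and strain, sex, age and light schedule are not given in the labels used here.

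The core particle is a barrel of stacked alpha and beta rings, and 3 beta subunits, Psmb5, Psmb6 and Psmb7, carry the cleaving sites. The regulatory particle caps the barrel: its ATPase ring unfolds substrates and threads them in, and its non-ATPase subunits bind and strip ubiquitin. Interferon and cells of the immune system replace the 3 cleaving subunits by Psmb8, Psmb9 and Psmb10 and add the activator Psme1, which favours peptides for class I presentation. In the heart, the proteasome turns over sarcomere and signalling proteins, and loss of its activity is known to impair cardiomyocytes under load.

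The deposited values are relative. In each surgery separately, the 18 values of a probe set had a median that differed from 0 by less than 1e-06. A value thus says how far a gene lay above or below its own median in that surgery, on a scale taken as log2. The level of a proteasome gene in TAC therefore could not be compared with its level in SHAM, nor the level of one gene with that of another, and what follows is about time of day and about differences between mice. P-values set the differences over time against a residual spread, which the main fits estimated over both surgeries together. In the fits of group means this is the spread between individual mice. In the fits of a curve it also holds the departure of the group means from that curve. Within a group the SD was higher in TAC than in SHAM for 71.9% of all genes, which a shared estimate does not take up. In whole ventricle, fewer cells of a type and less RNA per cell cannot be told apart. Of the 36 arrays, 4 carried transcripts of other tissue, taken as a mean above 1 over thymocyte or over airway and lung markers. On the SHAM ZT11 replicate 3 array the mean of 11 thymocyte markers was 1.97, and the mean of 11 airway and lung markers was 1.05 on SHAM ZT23 replicate 3, 1.31 on TAC ZT03 replicate 3 and 1.65 on TAC ZT23 replicate 1. On the other arrays the thymocyte mean reached at most 0.13 and the airway mean at most 0.16. The mean of 7 atrial markers ranged from -0.85 to 0.20 over the SHAM arrays and from -0.93 to 0.52 over the TAC arrays. No array was left out for its atrial mean. The values of 12 cardiomyocyte markers averaged between -0.17 and 0.09 on all 36 arrays. Centring removes the level itself, so the presence of heart muscle RNA could not be checked from the level of these markers.

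Core subunit genes are known to be induced together through an antioxidant response element in their promoters, which the transcription factors Nfe2l1 and Nfe2l2 bind. Promoter sequences (RefSeq, GRCm38.p6, 250 bases before to 50 bases after the start of the gene) were matched for 40 of the 48 members. Psma8, Psmb1, Psmb2, Psmb7, Psmc3, Psmd3, Psmd7 and Psmg2 were not matched. The bases before the start are shown for Psmb5, the member whose time course passed the test in TAC, and for Psmb6, another cleaving subunit with a like time course. Capitals mark a match of the element TGACNNNGC, searched on both strands. It began 47 bases before the start in Psmb5 (chr14:54617996-54618245, minus strand) and 9 bases before the start in Psmb6 (chr11:70525107-70525356, plus strand).
Psmb5: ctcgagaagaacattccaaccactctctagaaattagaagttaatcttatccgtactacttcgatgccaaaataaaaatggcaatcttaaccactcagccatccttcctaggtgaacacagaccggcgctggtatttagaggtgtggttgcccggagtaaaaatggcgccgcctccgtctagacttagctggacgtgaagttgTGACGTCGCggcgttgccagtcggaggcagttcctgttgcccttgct
Psmb6: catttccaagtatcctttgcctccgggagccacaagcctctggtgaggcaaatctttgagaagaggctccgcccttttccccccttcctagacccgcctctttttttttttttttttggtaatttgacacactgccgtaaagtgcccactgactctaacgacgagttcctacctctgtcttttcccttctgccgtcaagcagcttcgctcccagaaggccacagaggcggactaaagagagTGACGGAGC
This form was found in 4 of the 25 core subunits with a promoter sequence (16%: Psmb5, Psmb6, Psmc6 and Psmd12) and in 12.5% of the 27025 genes with one. The form TGAGNNNGC was found in 9 of the 25 (36%) against 17.5% of all genes, and either form in 11 (44%) against 27.7%. The element GAAANNGAA, a core of interferon response elements, was found in 1 of the 4 immune subunits (Psme1), in 3 of the 25 core subunits and in 8.57% of all genes. The palindromic E-box CACGTG, which clock factors bind, was found in 4 of the 40 members (Psma4, Psmb10, Psmd9 and Psme3; 10%) against 7.24% of all genes, and the heat shock pair GAANNTTC in 3 of the 40 (7.5%) against 7.95%. These matches describe letters in a window and are no evidence of binding.

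Changes over the day among proteasome genes were about as large as among all genes, and in most tests no more frequent. With a 24-h cosine fitted to each surgery (limma, Benjamini-Hochberg over all 12393 genes, threshold 0.05), no member passed in SHAM, where 5.58% of all genes did, and 1 of 48, Psmb5, passed in TAC, where 4.35% of all genes did. At an unadjusted p under 0.05 the counts were 9 members in SHAM (18.8% of members and 18.8% of all genes) and 6 in TAC (12.5% and 19.8%). The share of members was thus not above that of all genes in either surgery. The amplitude, the distance from the mean to the peak of the fitted curve, had a median over the members of 0.049 in SHAM and 0.056 in TAC, beside 0.048 and 0.047 over all genes. The fitted peak was at most 1.18-fold above the trough among core subunits in both surgeries, and the highest ratio of any member was 1.31 for the immune subunit Psmb8 in SHAM.

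Without assuming a curve, the F-test for any difference among the 6 times passed 0 members in SHAM and 1, again Psmb5, in TAC, where 3.37% and 5.26% of all genes passed. At an unadjusted p under 0.05 it held 3 members in SHAM (Psmd4, Psmd6 and Psmd11), 6.25% of members beside 13.2% of all genes. In TAC it held 11, which is 22.9% of members beside 20.3% of all genes. A component with a 12-h period passed for 0 members in SHAM (0% of all genes; 0 members and 3.03% of all genes at an unadjusted p under 0.05). It passed for 0 members in TAC as well, against 1.03% of all genes, and there 5 members (Psmb5, Psmc3ip, Psmd8, Psme1 and Psmg1) and 11.9% of all genes had an unadjusted p under 0.05.

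Most core subunits in SHAM had their lowest group mean at ZT03, and in TAC their lowest means were shared between ZT03 and ZT11. Of the 31, 23 had their lowest group mean at ZT03 in SHAM and 17 did in TAC, while 16% and 14.8% of all genes had theirs there, and the counts moved when mice were left out. In TAC, 13 were lowest at ZT11, and 21 of 31 were highest at ZT23, against 16.5% and 17.1% of all genes. These times were not tested for the core mean. Among all genes the opposite was common, since 37.1% in SHAM and 26% in TAC were highest at ZT03. The mean over the 31 core subunits was -0.09 ± 0.07 (SD, n = 3 mice) at ZT03 in SHAM, with single arrays at -0.04, -0.07 and -0.17, and group means between -0.0030 and 0.021 at the other 5 times. In TAC it was -0.08 ± 0.07 at ZT03, with arrays at -0.13, -0.12 and -0.0046, and 0.08 ± 0.03 at ZT23, with arrays at 0.11, 0.05 and 0.09. All 3 TAC mice at ZT23 thus lay above all 3 TAC mice at ZT03, whereas the SHAM mice at ZT03 overlapped with those at ZT11, which ranged from -0.07 to 0.04. Other marker lists moved with these times in TAC. At ZT23 the fibroblast and matrix mean was 0.42 ± 0.16 and the atrial mean -0.71 ± 0.36, the highest and the lowest of any group, and at ZT03 they were -0.11 ± 0.45 and -0.0084 ± 0.2323. TAC ZT23 replicate 1 and TAC ZT03 replicate 3 also carried lung transcripts. The part of these lists in the core values was not tested. Without the 4 arrays that carried other tissue, 18 core subunits were lowest at ZT03 in SHAM and 24 in TAC, and 17 were highest at ZT23 in TAC. The fitted peaks of 26 core subunits in SHAM and 29 in TAC fell between ZT12 and ZT24, where 36.0% and 46.5% of all genes peaked. Between ZT16 and ZT24 the counts were 13 and 29 of 31, beside 26.6% and 34.6% of all genes. Many of these peak times were loosely set, and only the 24-h fit of Psmb5 in TAC passed. The SE of the peak ran from 1.2 h (Psmd4) to 8.3 h (Psmd13) in SHAM and from 0.97 h (Psmb5) to 20.8 h (Psmc6) in TAC. The subunits also share arrays, and no member's rhythm differed between the surgeries after adjustment.

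**Figure D1:**
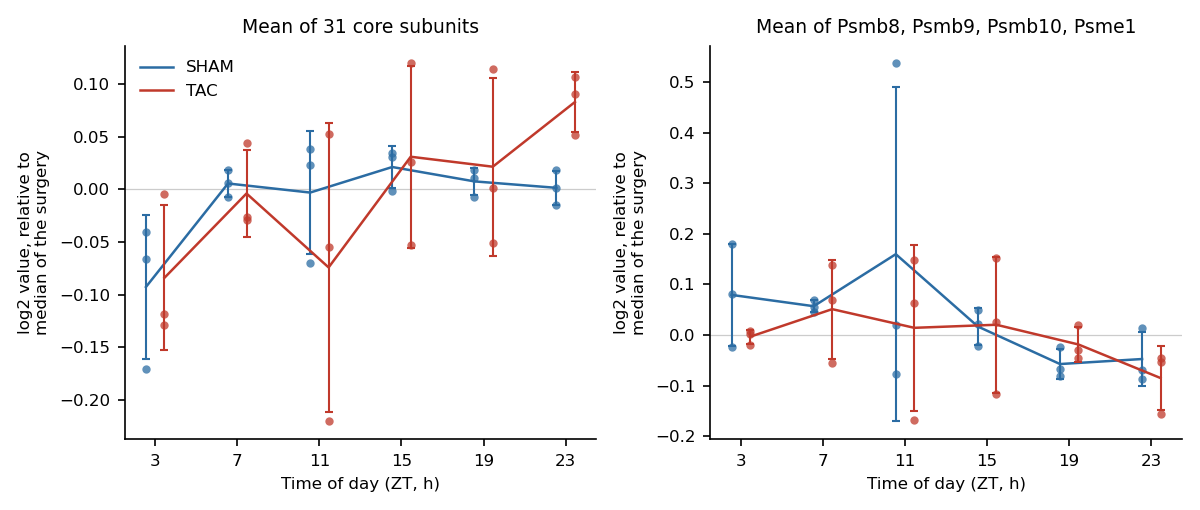
Mean log2 value, relative to the median of each surgery, of the 31 core subunits (left) and of the 4 immune subunits (right) by time of day. Points are arrays (1 mouse each), lines join group means and bars are the SD over 3 mice. The core mean is lowest at ZT03 in both surgeries, close to that at ZT11 in TAC, and highest at ZT23 in TAC, and a single SHAM mouse at ZT11 lies at 0.54 in the immune mean.

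Single hearts weighed on these times. On the TAC ZT11 replicate 2 array all 31 core subunits were below 0 and their mean was -0.22, the lowest of any array, while its neighbours at ZT11 stood at 0.05 and -0.06. On the TAC ZT19 replicate 1 array all 31 were above 0, and on TAC ZT03 replicates 1 and 2 it was 30 of 31 that lay below. On these arrays 44.5%, 44.7%, 43.2% and 41.1% of all genes lay on the same side of 0. The mean of 12 cardiomyocyte markers was -0.17 on TAC ZT11 replicate 2, also its lowest value of any array, and the mean of 9 fibroblast and matrix markers was 0.38 there, within a TAC range of -0.52 to 0.64. On SHAM ZT03 replicate 3, the lowest SHAM array for the core subunits with 27 of 31 below 0, the cardiomyocyte marker mean was -0.08. On TAC ZT19 replicate 1 the mean of 7 atrial markers was 0.52, its highest value of any array. The part of these markers in the core means was not tested. Without SHAM ZT03 replicate 3 the number of core subunits lowest at ZT03 in SHAM was 14, and without TAC ZT11 replicate 1 that in TAC was 6; the ZT11 group then held the mice at -0.22 and -0.06. Without all mice numbered replicate 3 the SHAM count was 10, and without those numbered replicate 1 the TAC count was 2. The number highest at ZT23 in TAC stayed between 14 and 23 in all of these omissions.

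Among the cleaving subunits, Psmb5, which carries the chymotrypsin-like site and is the target of bortezomib, had the clearest time course. In TAC its values were -0.22, -0.07 and -0.0045 at ZT03, 0.01, -0.08 and -0.03 at ZT07, -0.01, -0.21 and -0.02 at ZT11, and 0.0045, 0.03 and -0.07 at ZT15. They rose to 0.15, 0.11 and 0.12 at ZT19 and stood at 0.04, 0.11 and 0.08 at ZT23. Each TAC mouse at ZT19 or ZT23 was above each TAC mouse at the 4 earlier times. In SHAM the values were -0.0051, -0.13 and -0.13 at ZT03, -0.06, -0.08 and -0.0078 at ZT07, -0.13, -0.01 and 0.03 at ZT11, 0.05, 0.08 and -0.05 at ZT15, 0.13, 0.06 and 0.02 at ZT19, and 0.0051, 0.08 and 0.04 at ZT23. The SHAM mice at the late times were mostly above those at the early times, with overlap. The amplitude was 0.096 ± 0.024 (SE, 18 mice) in TAC, a peak 1.14-fold above the trough near ZT19.8, with an adjusted p of 0.0432 (limma). In SHAM it was 0.073 ± 0.024 with a peak near ZT18.4 and an adjusted p of 0.16. The test of any shape gave an adjusted p of 0.0498 in TAC and 0.46 in SHAM (limma). The difference between the surgeries did not pass (unadjusted p = 0.547, adjusted p = 0.93, limma).

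Both calls for Psmb5 sat at the threshold. Both were lost with quantile normalization (adjusted p 0.056 for the 24-h rhythm and 0.13 for any shape, limma), with the replicate number as a block (0.051 and 0.065), with the 18 TAC arrays alone (0.20 and 0.28), with the probe set of largest SD taken for each gene (0.054 and 0.071) and without genes of low SD, which removed Psmb5. Without the 4 arrays that carried other tissue, the 24-h call was lost (0.054) and that of any shape was kept (0.031). The 24-h call in TAC was also lost each time all mice of a replicate number were left out. Over 46 alternatives its adjusted p reached 0.56 (limma). Leaving out a single array kept the 24-h call in TAC in 22 of 36 cases and lost it in 14, with adjusted p from 0.0224 to 0.122 (limma). Among the TAC arrays it was lost without ZT03 replicate 2 (adjusted p 0.0596), ZT07 replicate 2 (0.0658), ZT11 replicate 2 (0.0662), ZT15 replicate 2 (0.0518), ZT19 replicate 1 (0.122), replicate 2 (0.0832) or replicate 3 (0.0779), and ZT23 replicate 2 (0.0742) or replicate 3 (0.0692). Among the SHAM arrays, which enter through the shared estimate of the spread, it was lost without ZT07 replicate 2 (0.0506), ZT11 replicate 2 (0.0507), ZT15 replicate 1 (0.0512), ZT19 replicate 2 (0.0514) or ZT23 replicate 3 (0.0509). The call of any shape for Psmb5 was kept without any one of SHAM ZT03 replicate 1, SHAM ZT11 replicates 1 and 3, TAC ZT03 replicate 3, TAC ZT11 replicates 1 and 3, and TAC ZT15 replicates 1 and 2. It was lost without any one of the other 28 arrays. The count of members passing that test also moved: it was 6 without TAC ZT11 replicate 1 (Psmb5, Psmc3, Psmd6, Psmd8, Psmd12 and Psmg1), when 9.9% of all genes passed in place of 5.26%. It was 3 without TAC ZT03 replicate 3 (8.56% of all genes), 2 without TAC ZT15 replicate 1 (7.17%) and 2 without SHAM ZT11 replicate 1 (5.23%).

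The other beta ring genes were less regular. Psmb6, the caspase-like cleaving subunit, had an amplitude of 0.096 ± 0.033 in TAC (adjusted p 0.18, limma) with group means of 0.12 ± 0.05 at ZT19 and -0.12 ± 0.19 at ZT11, where its mice stood at 0.02, -0.34 and -0.05. Psmb3, a structural beta subunit, had the largest amplitude of the beta ring in TAC, 0.114 ± 0.047 (adjusted p 0.29), and its TAC values at ZT15 were -0.04, 0.13 and 0.42. Psmb4, another structural subunit, had the largest in SHAM, 0.112 ± 0.050 (adjusted p 0.35), and its SHAM values at ZT03 were 0.07, -0.30 and -0.59. Without SHAM ZT03 replicate 1, or without all mice of that number, it was the 1 member that passed the test of any shape in SHAM. The spread among the 3 mice of such a group was as large as the change over the day. Psmb1, Psmb2 and Psmb7, the last being the trypsin-like cleaving subunit, had amplitudes from 0.018 to 0.064. All 7 beta ring genes peaked between ZT12 and ZT24 in both surgeries.

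**Figure D2:**
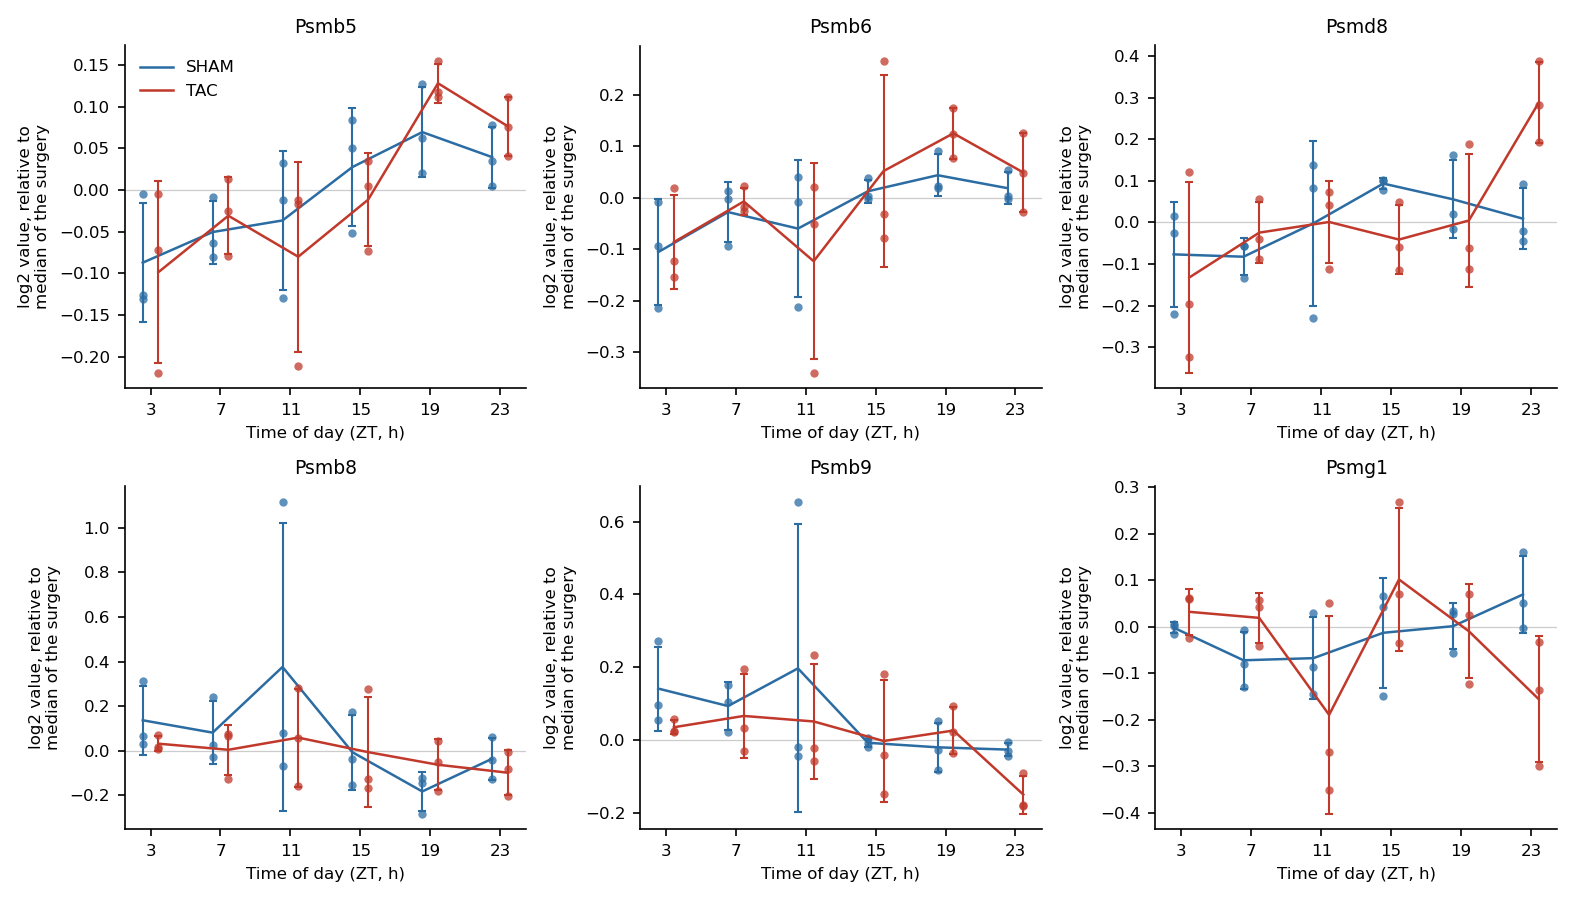
Log2 values, relative to the median of each surgery, of the cleaving subunits Psmb5 and Psmb6, the non-ATPase subunit Psmd8, the immune subunits Psmb8 and Psmb9 and the assembly chaperone Psmg1 by time of day. Points are arrays, lines join group means and bars are the SD over 3 mice. Axes differ between genes: Psmb5 ranges within 0.22 of 0, whereas 1 SHAM mouse at ZT11 reaches 1.12 for Psmb8.

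The alpha ring forms the gate of the barrel. Its 7 genes other than Psma8 all peaked between ZT12 and ZT24 in SHAM, and 6 did in TAC, where Psma5 with an amplitude of 0.011 was the exception. None passed a test, and 1 of 8 in each surgery had an unadjusted p under 0.05 for the 24-h rhythm (Psma5 in SHAM and Psma2 in TAC). Psma2 had the largest amplitude in TAC, 0.099 ± 0.034 (adjusted p 0.18, limma). Its TAC values were -0.18, -0.13 and -0.10 at ZT03 and 0.16, 0.01 and 0.22 at ZT23, groups that did not overlap, with a single high mouse of 0.37 at ZT15. Psma7 had an amplitude of 0.098 ± 0.041 in TAC and 0.050 ± 0.041 in SHAM, both peaking near ZT18. Psma3 had 0.084 ± 0.048 and 0.070 ± 0.048, and its SHAM values at ZT03 were -0.07, -0.02 and -0.38. The amplitudes of Psma1, Psma4, Psma5 and Psma6 lay between 0.011 and 0.080 over both surgeries. Psma8, an alpha subunit of the testis, peaked near ZT1.1 in SHAM and ZT23.8 in TAC with amplitudes of 0.046 in both, and it also differed from the ring in its variation between mice.

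**Figure D3:**
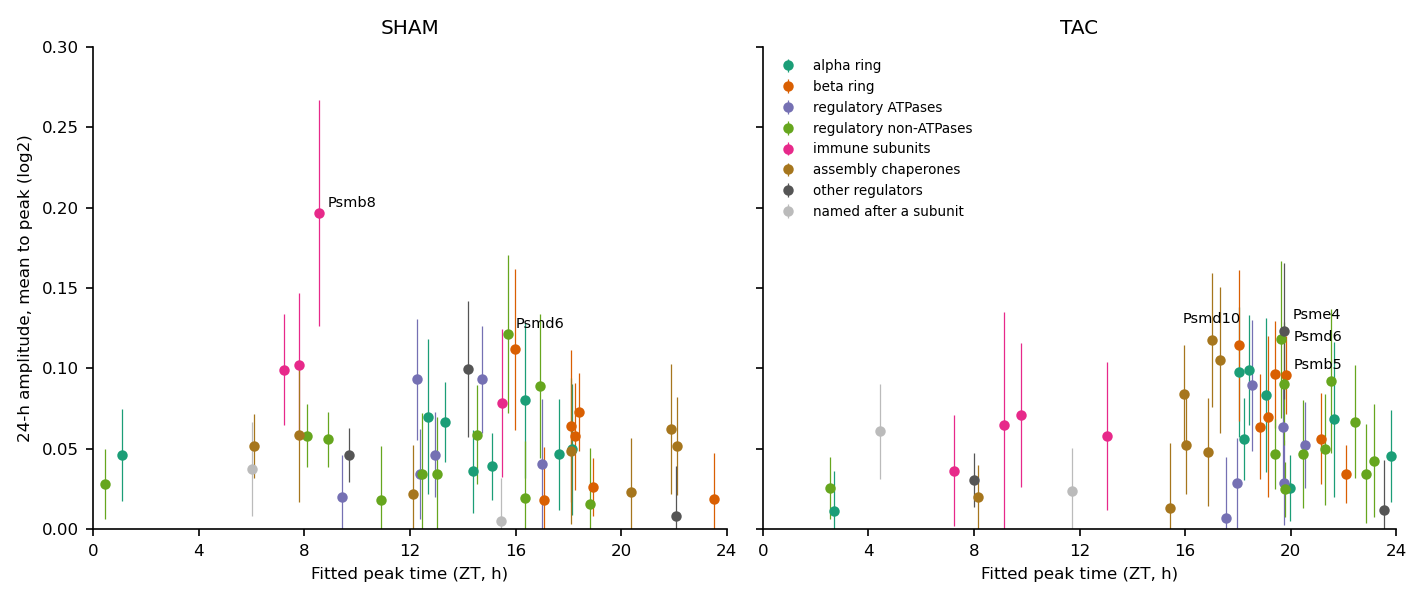
Fitted 24-h amplitude (log2, mean to peak) against fitted peak time (ZT, h) for the 48 members in SHAM (left) and TAC (right), coloured by role; bars are the SE from limma. Psmb5 in TAC is the single point that passed the test. In TAC 36 of 48 members and in SHAM 18 peak between ZT16 and ZT24, beside 34.6% and 26.6% of all genes. No member's rhythm differed between the surgeries after adjustment.

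The ATPase ring, Psmc1 to Psmc6, held no gene that passed, and 1 of 6 in SHAM (Psmc4) and 0 of 6 in TAC had an unadjusted p under 0.05 for the 24-h rhythm (limma). Psmc4 had an amplitude of 0.093 ± 0.033 in SHAM with a peak near ZT14.7 (adjusted p 0.20). Its SHAM values were -0.11, -0.09 and -0.19 at ZT03, below all 15 other SHAM mice, and 0.0023, 0.06 and 0.12 at ZT15. Psmc6 had 0.093 ± 0.038 in SHAM and 0.0070 ± 0.038 in TAC, and the difference between the surgeries had an adjusted p of 0.89. Psmc3 had 0.089 ± 0.041 in TAC and 0.041 ± 0.041 in SHAM. Psmc1, Psmc2 and Psmc5 had amplitudes from 0.020 to 0.052.

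Among the non-ATPase subunits, Psmd6, a scaffold of the lid, had the largest amplitude in both surgeries, 0.121 ± 0.049 in SHAM (adjusted p 0.29) and 0.118 ± 0.049 in TAC (adjusted p 0.29, limma). Its SHAM values at ZT03 were -0.05, -0.33 and -0.44, and its TAC values at ZT11 were 0.11, -0.57 and -0.17. Psmd8, another lid subunit, was highest at ZT23 in TAC at 0.39, 0.28 and 0.19, above all 15 other TAC mice, of which the highest reached 0.187 against 0.194 for the lowest at ZT23. In the test of any shape it had an adjusted p of 0.065 in TAC, next to Psmb5, and it passed that test without any one of TAC ZT11 replicate 1, TAC ZT03 replicate 3, TAC ZT19 replicate 1 and SHAM ZT11 replicate 1. At ZT23 in SHAM it was 0.09, -0.04 and -0.02, and the interaction of surgery and time had an adjusted p of 0.95. Psmd12 had 0.090 ± 0.038 in TAC and 0.034 ± 0.038 in SHAM.

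Psmd4, a ubiquitin receptor, and Psmd11, a lid scaffold, had the smallest p among the 5 core subunits that peaked between ZT0 and ZT12 in SHAM, the others being Psmc2, Psmd2 and Psmd7; they are named here after their values were seen. Psmd4 was highest in SHAM at ZT07, at 0.10, 0.13 and 0.03, and lowest at ZT19, at -0.10, -0.07 and -0.01, with an amplitude of 0.056 ± 0.017 and a peak near ZT8.9 (unadjusted p 0.0098, adjusted p 0.11, limma). In TAC it was highest at ZT23, at 0.05, -0.00085 and 0.08, with an amplitude of 0.025 and a peak near ZT19.8. The difference of its rhythm between the surgeries had an unadjusted p of 0.0089 and an adjusted p of 0.67. Psmd11 peaked near ZT8.1 in SHAM with 0.058 ± 0.019 (adjusted p 0.16). The 3 probe sets of Psmd4 disagreed, with correlations between them from -0.54 to 0.10 over the 36 arrays, and the 6 of Psmd11 ranged from -0.72 to 0.65. Of the 21 members with several probe sets, 8 had a pair that correlated below 0 and 7 had all pairs above 0.5. Psmd1, Psmd2, Psmd3, Psmd7, Psmd13 and Psmd14 had amplitudes from 0.016 to 0.067.

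No member differed in its rhythm between TAC and SHAM after adjustment, and 0.0484% of all genes did. The same held for the time course without an assumed curve, in which 0.0161% of all genes passed. At an unadjusted p under 0.05 the same 2 members, Psmd4 and Psmd10, stood out in both tests, beside 6.27% and 5.57% of all genes. Psmd10, the assembly chaperone gankyrin, stood at 0.07, 0.26 and 0.20 at ZT19 in TAC, all above its TAC median, and at -0.02, -0.14 and -0.21 at ZT19 in SHAM, all below its SHAM median. Its amplitude was 0.118 ± 0.042 with a peak near ZT17.0 in TAC (adjusted p 0.19) and 0.058 ± 0.042 with a peak near ZT7.8 in SHAM (adjusted p 0.63), and the difference had an adjusted p of 0.79 (limma).

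In SHAM, the fitted curves of the 3 immune cleaving subunits peaked before ZT12, as those of most genes did. Psmb8 peaked near ZT8.6, Psmb9 near ZT7.8 and Psmb10 near ZT7.2, with amplitudes of 0.20 ± 0.07, 0.102 ± 0.045 and 0.099 ± 0.035, and adjusted p of 0.20, 0.34 and 0.19 (limma). Psme1 peaked near ZT15.5, within the times of most core subunits, with 0.078 ± 0.046. A difference in timing between the classes was not tested. In TAC the 4 amplitudes were 0.036 to 0.071, and no test passed in either surgery. Of the 4, 1 had its peak between ZT12 and ZT24 in each surgery, Psme1 in both, beside 36.0% of all genes in SHAM and 46.5% in TAC. Psmb10 in SHAM was 0.16, 0.18 and 0.04 at ZT03, 0.04, 0.15 and 0.10 at ZT07 and -0.05, -0.03 and -0.09 at ZT19, so that all mice of the early times lay above those of ZT19. In TAC the corresponding values were -0.29, -0.06 and 0.05 at ZT03, 0.17, 0.13 and -0.07 at ZT07 and 0.08, -0.14 and -0.12 at ZT19, which overlapped.

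A single heart stood out for the immune subunits. On SHAM ZT11 replicate 3, Psmb8 was 1.12, Psmb9 was 0.65 and Psmb10 was 0.33, while the highest value on any other SHAM array was 0.31, 0.27 and 0.18. Psme1 was 0.04 there. All 11 measured thymocyte markers and 5 of 16 leukocyte and macrophage markers had their highest SHAM value on this array, with list means of 1.97 and 0.46. Over the other SHAM arrays, Psmb8 was 0.06, 0.31 and 0.03 at ZT03, 0.24, -0.03 and 0.03 at ZT07, -0.07 and 0.08 at ZT11, 0.17, -0.16 and -0.04 at ZT15, -0.12, -0.28 and -0.15 at ZT19, and 0.06, -0.13 and -0.04 at ZT23. The 3 mice at ZT19 were thus among the lowest. Without the array the amplitude in SHAM was 0.123 for Psmb8, 0.076 for Psmb9 and 0.086 for Psmb10, with adjusted p of 0.19, 0.31 and 0.22 (limma). In TAC, Psmb9 was lowest at ZT23, at -0.09, -0.18 and -0.18, overlapping with 1 mouse of -0.15 at ZT15, and no change of any shape passed (adjusted p 0.68).

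The assembly chaperones bring alpha rings, beta subunits and the ATPase base together and leave before the particle is complete. None of the 7 passed. Psmg1, which with Psmg2 templates the alpha ring, came nearest in the 12-h component in TAC, with an amplitude of 0.144 ± 0.034 and an adjusted p of 0.066 (limma). Its TAC values were 0.06, 0.06 and -0.03 at ZT03, 0.06, -0.04 and 0.04 at ZT07, 0.05, -0.35 and -0.27 at ZT11, 0.07, -0.03 and 0.27 at ZT15, 0.07, 0.03 and -0.12 at ZT19, and -0.30, -0.14 and -0.03 at ZT23. The low mice were at ZT11 and ZT23, but 1 mouse at each of these times stood among the rest. A 12-h component rests on 3 sampled times per cycle. This component passed without any one of TAC ZT03 replicate 3, TAC ZT11 replicate 1, TAC ZT15 replicate 2, TAC ZT19 replicate 3 and TAC ZT23 replicate 3. Psmg2 had a 24-h amplitude of 0.105 ± 0.045 and Psmg3 of 0.084 ± 0.031 in TAC, with TAC ZT15 replicate 3 at 0.56 and 0.34. On that array the mean of the 7 chaperones was 0.31, against at most 0.07 on any other TAC array. The Psma2 value of 0.37 and the Psmb3 value of 0.42 at ZT15 came from the same array. Its 3' minus 5' difference of the Gapdh control probe sets, a measure of RNA quality, was 0.17. That was the highest of any array, the next being 0.07, while the same difference for beta actin was 0.01. The part of RNA quality in these values was not tested. Psmg4, Psmd5 and Psmd9 had amplitudes from 0.020 to 0.052.

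Of the other regulators, Psme4, the activator PA200, had the largest amplitude of all members in TAC, 0.123 ± 0.042, with a peak near ZT19.7 (adjusted p 0.18, limma). Its TAC values were -0.26, -0.22 and -0.10 at ZT03, 0.28, 0.07 and 0.0024 at ZT19 and 0.34, 0.05 and 0.10 at ZT23, and the ZT03 mice did not overlap with either late time. In SHAM it had 0.0995 ± 0.0424 with a peak near ZT14.2 (adjusted p 0.32), and it passed there when all mice numbered replicate 1 were left out. Its 3 probe sets correlated at 0.74 to 0.92. Psmf1, an inhibitor of the core particle, peaked near ZT9.7 in SHAM and ZT8.0 in TAC, with amplitudes of 0.046 ± 0.017 and 0.031 ± 0.017. Psme3, the nuclear activator, had amplitudes of 0.0084 in SHAM and 0.012 in TAC. Psmc3ip, which takes part in meiotic recombination, had 0.037 and 0.061, and Psme3ip1 had 0.0049 and 0.024.

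Core subunits varied together from mouse to mouse once the mean of each group was removed, and did so in TAC with higher correlations. Each subunit was set against the mean of the other 30 over the 18 mice of a surgery. The median correlation was 0.49 in SHAM, from -0.36 (Psmb1) to 0.89 (Psma3), and 0.77 in TAC, from 0.28 (Psmd7) to 0.91 (Psmc3). The 3 probe sets of Psmb1 correlated with each other at -0.35 to 0.15, and the 3 of Psmd7 at -0.67 to 0.49. Of the 31, 27 had the higher correlation in TAC, as did 51.3% of all genes when set against the core mean. Over all genes the median was -0.12 in both surgeries, and 10.0% of all genes in SHAM and 2.57% in TAC lay above the median of the core subunits. In SHAM 5 core subunits correlated below 0, among them Psmb2 (-0.20) and Psmd1 (-0.31), which reached 0.85 and 0.80 in TAC. These correlations describe 18 points that share arrays, so that anything that shifts many probe sets on an array is shared, and no test of them was made. Without TAC ZT11 replicate 2 the TAC median was 0.67, and without SHAM ZT03 replicate 3 the SHAM median was 0.35. Leaving out all mice with a given replicate number gave lowest medians of 0.65 in TAC and 0.27 in SHAM.

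Members outside the core ranged from opposite signs to correlations as high as those of core subunits. Psmd9, a chaperone of the ATPase base, ran opposite to the core in both surgeries (-0.66 in SHAM and -0.64 in TAC). So did Psma8 (-0.57 and -0.25), Psmf1 (-0.17 and -0.47) and Psmc3ip (-0.45 and -0.18), which is only named after a subunit. Psme3 was slightly negative in both (-0.09 and -0.0019). The 2 probe sets of Psmd9 correlated at -0.22 with each other, and the 4 of Psmf1 at -0.35 to 0.46. The gene values of Psmd9 and Psmf1 thus average probe sets that disagreed. Psmg2 (0.87 and 0.67) and Psme4 (0.43 and 0.68) were positive in both, while Psmd5 had -0.22 and 0.64 and Psmg1 had 0.06 and 0.61. Their values were known when they were picked. The 4 immune subunits had correlations from 0.45 to 0.81 in SHAM and from 0.09 to 0.56 in TAC, lower in TAC for each of them.

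The spread between mice of 1 group was higher in TAC than in SHAM for 37 of 48 members (77.1%), beside 71.9% of all genes. The SD around the group means was 1.34 times as large in TAC at the median of the members and 1.23 times at the median of all genes. Among the core subunits it was higher in TAC for 27 of 31, with a median ratio of 1.37. The ratio was largest for Psme1 (2.21, an SD of 0.18 in TAC and 0.08 in SHAM) and Psmc2 (2.20) and lowest for Psmb2 (0.53) and Psmb8 (0.54). For Psmb8 and Psmb9 the order turned without SHAM ZT11 replicate 3, when their SD in SHAM fell from 0.29 and 0.17 to 0.13 and 0.06, below the 0.16 and 0.11 of TAC. The ratios were not tested.

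**Figure D4:**
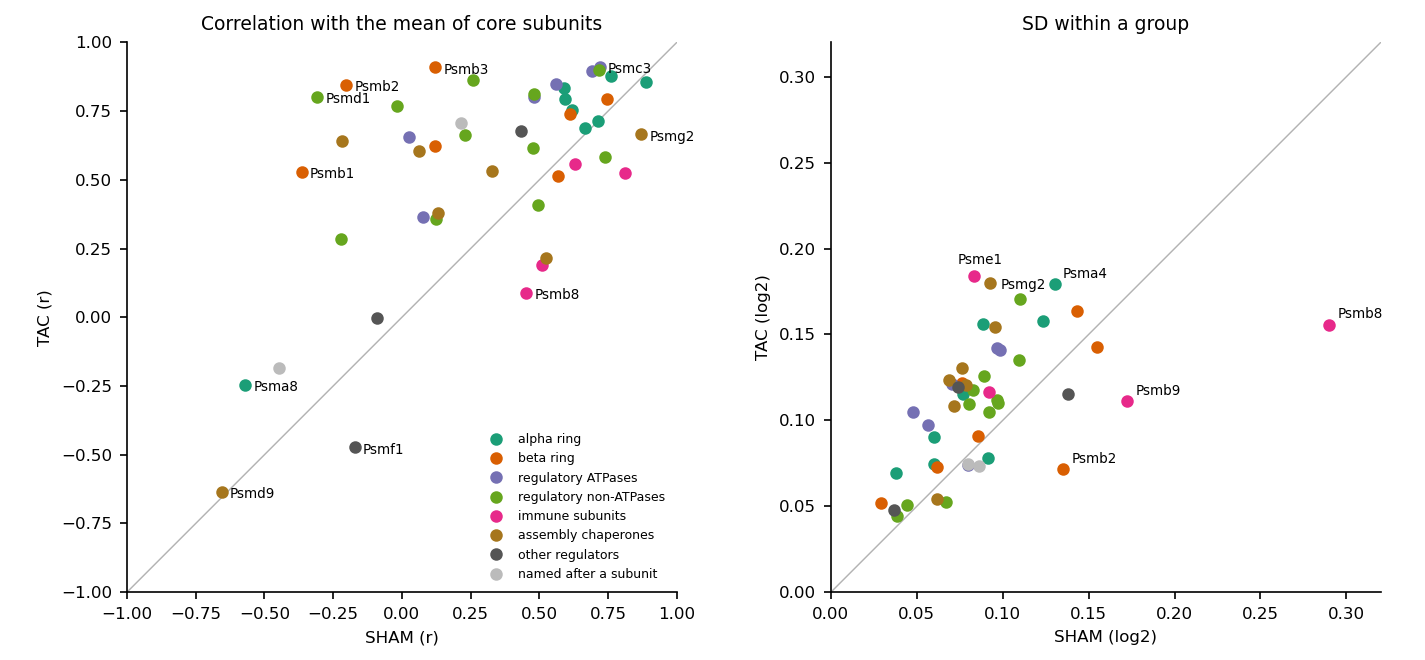
Left, correlation of each member with the mean of the core subunits (itself left out) over 18 mice after removal of group means, SHAM against TAC. Right, SD (log2) around the group means in SHAM against TAC; the grey line marks equality, colours give the role, and most core subunits lie above the line in both plots while Psmb8 and Psmb2 lie below it on the right.

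The genes around the proteasome were taken as lists. A list of 33 partners, which holds ubiquitin receptors, shuttles, deubiquitinases, assembly factors and the factors that induce subunit genes, had 21 measured members. Of these, 2 passed the 24-h test in SHAM and 0 in TAC (limma), beside 5.58% and 4.35% of all genes. At an unadjusted p under 0.05 it was 3 and 5 of 21, beside 18.8% and 19.8% of all genes, and the median amplitudes were 0.044 and 0.058. Nfe2l2, which induces antioxidant and proteasome genes, had an amplitude of 0.23 ± 0.05 with a peak near ZT15.2 in SHAM (adjusted p 0.016) and 0.121 ± 0.052 near ZT15.6 in TAC (adjusted p 0.32). Zfand5, a proteasome activator of muscle, had 0.104 ± 0.026 near ZT6.6 in SHAM (adjusted p 0.028) and 0.041 ± 0.026 in TAC (adjusted p 0.58). Ubqln1, a shuttle of ubiquitinated proteins, and Vcp, the segregase upstream of the proteasome, had adjusted p of 0.054 each in TAC, with amplitudes of 0.085 and 0.088 and peaks near ZT17.9 and ZT4.0. Nfe2l1, the factor that raises subunit genes when the proteasome is inhibited, had 0.068 in SHAM and 0.071 in TAC (adjusted p 0.46 and 0.43). Whether any of the 21 differ between the surgeries was tested as for the members, and none passed for the rhythm or the time course. At an unadjusted p under 0.05 it was 3 and 4 of the 21 (limma), beside 6.27% and 5.57% of all genes. The test of any shape passed none of the 21 in either surgery. There 4 in SHAM and 8 in TAC had an unadjusted p under 0.05 (limma), beside 13.2% and 20.3% of all genes.

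Class I presentation and interferon genes, which accompany the immune subunits, had 17 of 20 listed genes measured. The 24-h test passed 3 of 17 in SHAM and 1 in TAC (limma), beside 5.58% and 4.35% of all genes. At an unadjusted p under 0.05 it was 6 and 4 of 17, beside 18.8% and 19.8% of all genes, and the median amplitudes were 0.071 and 0.070. In SHAM these were Calr and Pdia3, chaperones of the endoplasmic reticulum, with amplitudes of 0.151 ± 0.036 and 0.21 ± 0.05 and peaks near ZT23.0 and ZT23.5 (adjusted p 0.021 and 0.037), and Igtp, an interferon-induced GTPase, with 0.19 ± 0.05 near ZT6.9 (adjusted p 0.046). In TAC it was Irf9, part of the interferon-activated factor, with 0.096 ± 0.022 near ZT6.5 (adjusted p 0.020), and Irf1 passed the test of any shape there (adjusted p 0.029). Tap1, the peptide transporter whose gene lies next to Psmb9, had 0.082 ± 0.025 near ZT5.3 in SHAM (adjusted p 0.12). Of the marker lists, against the same shares of all genes, 1 of 12 cardiomyocyte markers (Nkx2-5) and 1 of 7 atrial markers (Nppa) passed the 24-h test in SHAM and none in TAC, and the 16 leukocyte and macrophage, 11 thymocyte, 11 airway and lung and 9 fibroblast and matrix markers held no gene that passed it in either surgery (limma; at an unadjusted p under 0.05, 2 leukocyte and 2 matrix markers in SHAM and 3 matrix markers in TAC). In the test of any shape in TAC, 3 atrial markers (Sln, Myl7 and Myl4) and 4 matrix markers (Col1a1, Col1a2, Col3a1 and Postn) passed, beside 5.26% of all genes.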

How the data were processed

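RNA of 36 left ventricles was hybridised to single-channel Affymetrix arrays from 6 ug of total RNA, per the labels' protocols. The authors deposited 1 table with a value for each of 22690 probe sets on a log scale of unstated base, read as log2, on which all folds rest. How they summarised and normalized the arrays is not given in the sources used here. As the deposited values are centred per surgery, TAC and SHAM levels were not compared and no filter on low values was made. Array medians ranged from -0.036 to 0.027. Of the probe sets, 20393 carried 1 symbol, of which 13 were controls and were dropped; 691 carried several and 1606 none. Entrez identifiers matched for 20351 of 20380. The mean over its probe sets was taken for each of 12393 genes. The 48 members had 85 probe sets, and 27 members had only 1.

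Rhythms were fitted with limma 3.58.1 (R 4.3.3) to all 36 arrays with 1 spread per gene: a mean, cosine and sine of 24 h per surgery, the same with 12-h terms, or 12 group means. P-values of the moderated F-tests were adjusted over all genes (Benjamini-Hochberg, 0.05). SEs of amplitudes use the shared spread. The tests were also run on simulated data with independent noise and 1 SD per gene for both surgeries. That setting left out shifts shared by an array and the higher spread in TAC. Members, lists and classes were chosen with earlier results of these data known. Named were members that passed a test, the 3 largest amplitudes of each class, and from the pathway lists those that passed or had the smallest p; others named are described by count or range or were chosen after their values were seen. Alternatives were quantile normalization, array weights, trend and robust fitting, 1 surgery alone, the probe set with the largest SD, a replicate block, omission of 4 arrays with other tissue, a filter on SD, and omission of each array or replicate number. Figures used matplotlib 3.10.9.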

Additional observations from a re-analysis of the deposited data

How the results depend on the processing

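With quantile normalization 4 members had a 24-h rhythm in SHAM (Psmb5, Psmc4, Psmd4 and Psmd11; 11.5% of all genes), and 0 had one, or a change of any shape, in TAC. Array weights, whose fit stopped before convergence, gave 15 members with a 24-h rhythm in SHAM (25.2% of all genes) and 4 in TAC (18.5%), 14 and 22 with a change of any shape (29.2% and 40.1%), 5 whose time course differed (14%) and 5 with a 12-h component in TAC (14.2%). Trend and robust fitting gave 2 members with a change of any shape in TAC. The 18 TAC arrays alone gave 0 members for both TAC tests. The probe set with the largest SD gave 0 for the 24-h rhythm in TAC and 2 for any shape (Psmb1 and Psme4). Without the 4 arrays with other tissue the counts were 0 and 3 (Psmb5, Psmc3ip and Psmd8). Without genes of low SD, which left 29 members and removed Psmb5, the 24-h count in TAC was 0, the 12-h count was 1 (Psmg1), 24 of 29 had the higher SD in TAC, and of the core subunits left 11 were lowest at ZT03 and 12 highest at ZT23 in TAC. In those fits the cause of the changes was not tested, apart from the removal of Psmb5. From trend and robust fitting onward, these counts stand without the share of all genes in the same fit. They therefore do not show whether members changed more than other genes did. The amplitude of Psmb5 in TAC ranged from 0.073 to 0.115 over 46 alternatives.

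Of 18 SHAM and TAC pairs with the same replicate number and time, 4 correlated above 0.1 after removal of group means (range -0.21 to 0.36). Of the 18, 4 correlated best with their own number. Each comparison stayed within a single time, so it cannot show whether mice with the same number shared a batch across times. With the replicate block the counts in TAC were 0 for the 24-h rhythm and 0 for any shape, against 1 each, and no other count changed its side of the threshold.

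Leaving out single arrays or replicate numbers gave 0 to 1 members with a 24-h rhythm in SHAM and 0 to 1 in TAC, 0 to 1 with a change of any shape in SHAM and 0 to 6 in TAC, 0 to 0 for a 12-h component in SHAM and 0 to 1 in TAC, and 31 to 41 members with the higher SD in TAC. Apart from the omissions named with Psmb5, these counts stand without the share of all genes in the same fit. They do not show whether members changed more than other genes did. No member differed between the surgeries in these omissions. The order of the SDs of Psmb8 and Psmb9 turned without SHAM ZT11 replicate 3, when they were higher in TAC. Amplitudes above 0.1 also missed the threshold, among them 0.123 for Psme4 in TAC and 0.20 for Psmb8 in SHAM, so a missed threshold does not show that a gene was steady.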
